A study of Mus musculus with 6 samples.

Results

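Of the 30543 genes in the count table, 60 encode cytosolic ribosomal proteins and are described here, 32 of the large ribosomal subunit (RPL genes) and 28 of the small subunit (RPS genes). They were chosen by name from a list of Ensembl identifiers, RPL3 to RPL32 and RPS2 to RPS29 with gaps, and not by their values. All 60 were in the table, and all 60 were among the 15736 genes kept by a filter on low counts.

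RNA from CFPAC-1, a pancreatic adenocarcinoma (PAAD) cell line, was sequenced from cells that had received either a negative control siRNA (si-Control) or one directed at KRT7 (si-KRT7), and each group has 3 libraries. KRT7 encodes a keratin of ductal epithelia, and the comparison asks which transcripts changed once it was depleted. Both groups are the same line and differ in the labels only by the siRNA, and which siRNA duplex was used is not in the labels. The labels do not say whether the libraries of a group came from separate cultures, so the p-values measure only the spread between these libraries, which may be technical.

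A ribosome is built from ribosomal RNA and a set of proteins. The large subunit forms peptide bonds and holds the tunnel through which the new chain leaves, and the small subunit reads the mRNA. The mRNAs of ribosomal proteins are among the most abundant of a growing cell, they begin with a run of pyrimidines (the terminal oligopyrimidine motif) through which mTOR signaling controls their translation, and their levels usually move together. A few of the proteins have roles of their own when they are not in a ribosome, such as the inhibition of MDM2 by RPL5 and RPL11, and loss of 1 copy of many of them causes Diamond-Blackfan anaemia.

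The libraries held 28208896 to 36315802 counts, with TMM normalization factors between 0.976 and 1.03, and no library was a repeat of another. The sample labels name the mouse as organism, but the identifiers are human and CFPAC-1 is a human line. The identifier paired by hand with KRT7, ENSG00000135480, fell from 1723, 1722 and 1797 CPM (counts scaled to the size of the library) in si-Control replicates 1, 2 and 3 to 212, 319 and 220.3 CPM in si-KRT7 replicates 1, 2 and 3. These were 12.2%, 18.3% and 12.6% of the si-Control mean (log2 fold change -2.80, adjusted p = 4.36e-04 in edgeR's quasi-likelihood test). Transcripts of the epithelial markers KRT19, KRT8, KRT18 and EPCAM were abundant, whereas CFTR had at most 4 counts in a library and the leukocyte gene PTPRC at most 2. The endothelial gene PECAM1 had 31 to 67 counts and the fibroblast gene COL1A1 336 to 453. The library of si-KRT7 replicate 2 stood apart from the other 2 of its group, so values are given with and without it.

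Summed over the 60 genes, the share of a library's counts was 6.71%, 6.62% and 6.92% in si-Control replicates 1, 2 and 3. It was 6.03%, 8.39% and 6.16% in si-KRT7 replicates 1, 2 and 3. The si-KRT7 libraries therefore lay on both sides of the si-Control libraries, with replicates 1 and 3 below all of them and replicate 2 above all of them. The means were 6.75% ± 0.155 and 6.86% ± 1.32 (SD, n = 3), a difference of 0.108 percentage points that did not pass a two-sided exact permutation test (p = 1, where 0.1 is the smallest p that 3 against 3 libraries allow). Without si-KRT7 replicate 2 the mean was 6.09% ± 0.0881 (SD, n = 2), a difference from si-Control of -0.656 percentage points (exact permutation p = 0.1, the smallest possible with 3 against 2). Replicate 2 was left out with its values known, and replicates 1 and 3 lie below every si-Control library. That choice fixed this p, which is not independent evidence of a decrease. In bulk RNA, a lower share of these mRNAs and a larger amount of all other RNA cannot be told apart, nor can less of an mRNA per cell and fewer cells that make it.

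**Figure D1:**
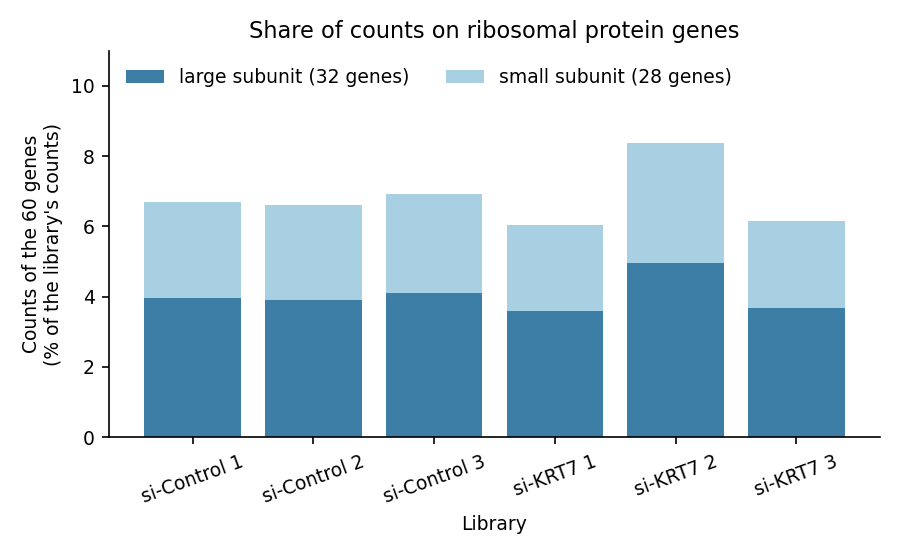
Percent of each library's counts that fell on the 60 ribosomal protein genes, stacked as large subunit (32 genes) and small subunit (28 genes), with 1 bar for each of the 6 libraries. The bar of si-KRT7 replicate 2, at 8.39%, is the tallest, and those of si-KRT7 replicates 1 and 3, at 6.03% and 6.16%, are the lowest.

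Both subunits showed this order of the libraries. The 32 large subunit genes held 3.97%, 3.91% and 4.10% of the counts in the si-Control libraries and 3.60%, 4.95% and 3.67% in the si-KRT7 libraries. The 28 small subunit genes held 2.74%, 2.71% and 2.83% in the si-Control libraries and 2.43%, 3.43% and 2.49% in the si-KRT7 libraries. Mitochondrially encoded mRNAs held 3.24% to 3.38% of the counts in si-Control libraries and 3.35% to 3.45% in si-KRT7 libraries, with replicate 2 at 3.43%. Their sum thus did not follow that order, whereas 3 of the 13 single mRNAs did. The transcripts of 3 epithelial keratins did follow it, as did 22.4% of all genes with a mean of at least 100 CPM. The log2 ratios to the si-Control mean in si-KRT7 replicates 1, 2 and 3 were -0.40, 0.20 and -0.38 for KRT19, -0.25, 0.27 and -0.22 for KRT8 and -0.24, 0.49 and -0.15 for KRT18. Those of EPCAM, at -0.0058, -0.0096 and 0.0034, did not. MALAT1, a nuclear noncoding RNA, lay at 964 to 1019 CPM in si-Control libraries and at 1179, 1467 and 1314 CPM in si-KRT7 replicates 1, 2 and 3, and it was thus highest in the library in which the ribosomal protein genes were highest. KRT7 mRNA was also least depleted in that library, and the part of these measures in the result was not tested.

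With all 6 libraries fitted together (edgeR's quasi-likelihood test, Benjamini-Hochberg adjustment over all genes tested), 0 of the 60 genes had an adjusted p under 0.05, against 2.07% of all genes tested (0.712% higher and 1.35% lower, and 3.2% lower among genes with a mean of at least 100 CPM). No member passed the further limit of an absolute log2 fold change of 1, which 0.292% of all genes did. At an unadjusted p under 0.05 there was 1 gene, RPS20, against 18.6% of all genes. DESeq2 and limma-voom also called 0 of the 60, whereas limma-voom with sample quality weights, which weights each library by how far it departs from its group, called 39 as lower, beside 43.6% of all genes called in either direction. The log2 fold changes, si-KRT7 against si-Control, ran from -0.35 (RPS20) to 0.36 (RPS10) with a median of 0.012, beside 0.011 over all genes tested. Of the 60, 35 were above 0, 25 were below 0 and 58 were within 0.2 of 0. The standard errors of these fold changes lay between 0.083 and 0.28 with a median of 0.14. In 1 of the 60 genes, RPS10, the libraries of the 2 groups did not overlap, against 24.4% of all genes.

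The spread within the si-KRT7 group differed from that in the si-Control group. The coefficient of variation of CPM over the 3 si-Control libraries had a median of 3.11% over the 60 genes, and that over the 3 si-KRT7 libraries 22.8%. Over all genes tested the medians were 6.15% and 16.0%, and over the 2221 genes with a mean of at least 100 CPM, a level that 58 of the 60 members reached, 2.55% and 11.9%. At the median, the ribosomal protein genes thus varied more between the si-KRT7 libraries than genes of a like level, which was not tested.

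By library, the median log2 ratio of the 60 genes to their si-Control mean was -0.013, -0.034 and 0.045 in si-Control replicates 1, 2 and 3, and -0.19, 0.34 and -0.16 in si-KRT7 replicates 1, 2 and 3. In si-KRT7 replicate 2, all 60 genes were above their si-Control mean and 59 were above every si-Control library. In si-KRT7 replicate 1, 58 genes lay below every si-Control library, and in replicate 3 there were 53. Shares of all genes were not counted for each library alone. Replicates 1 and 3 both lay below every si-Control library in 31.2% of all genes, and replicate 2 was above every other library in 27.6%. As a percent of the si-Control mean, the 60 genes ranged from 66.9% to 116% (median 87.5%) in replicate 1, from 101% to 161% (median 127%) in replicate 2 and from 67.6% to 109.8% (median 89.2%) in replicate 3.

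**Figure D2:**
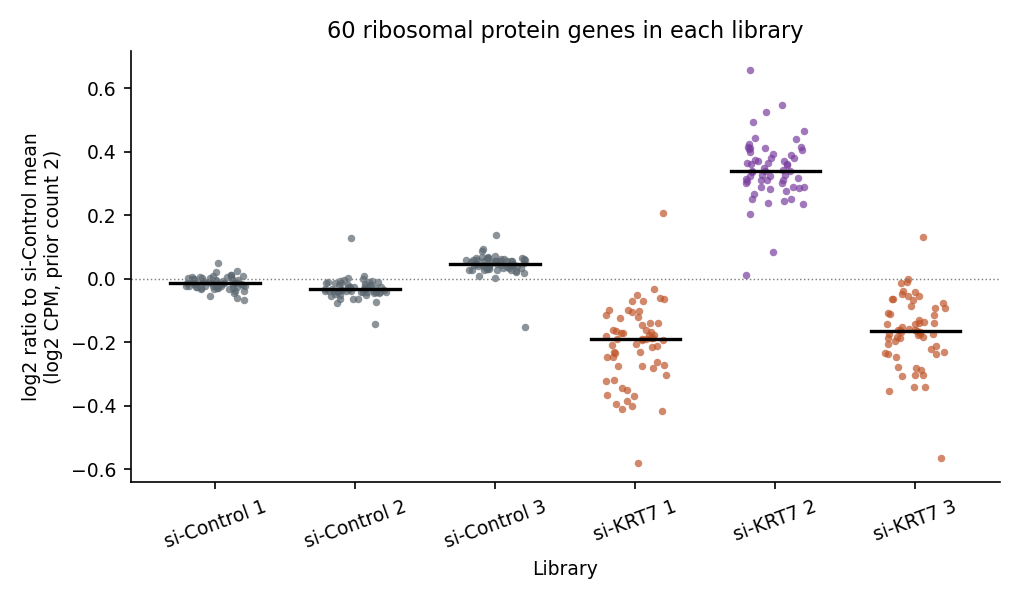
Log2 ratio of each of the 60 ribosomal protein genes to its mean over the si-Control libraries (log2 CPM with a prior count of 2), with 1 column of points for each library and a line at the median. The points of si-KRT7 replicate 2 sit above 0 with a median of 0.34, and those of si-KRT7 replicates 1 and 3 lie mostly below 0 with medians of -0.19 and -0.16.

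Set against every other library, si-KRT7 replicate 2 had the highest level in 59 of the 60 genes, the exception being RPS20. Among all genes tested this held for 27.6%, and among genes with a mean of at least 100 CPM for 30.3%. In 52 of the 60 genes replicate 2 was above, and replicates 1 and 3 were below, every si-Control library, against 12.4% of all genes and 22.4% of those with at least 100 CPM. The 8 genes outside this pattern were RPL11, RPL26, RPL27A, RPL31, RPS10, RPS20, RPS23 and RPS27, named after their values were seen. Relative to the mean of replicates 1 and 3, the level in replicate 2 was 1.16 to 1.73 times as high, with a median of 1.45.

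Without si-KRT7 replicate 2, 53 of the 60 genes were lower in si-KRT7 than in si-Control cells (adjusted p under 0.05 in edgeR's quasi-likelihood test) and 0 were higher. Among all genes tested 42.9% were called in this fit, 22% as lower, and among genes with a mean of at least 100 CPM 45.2% were lower. Of the 58 members at that level, 53 were lower. At an unadjusted p under 0.05 the members numbered 53 too, against 48.9% of all genes. In 53 of the 60 genes both si-KRT7 libraries lay below the 3 si-Control libraries, against 31.2% of all genes, and in 1 gene, RPS10, both lay above them, against 30.2%, which makes 61.5% of all genes without overlap. Because the library was left out on the ground of earlier results from these data, the calls are not independent evidence of a decrease, and with all 6 libraries they number 0. The median log2 fold change was -0.18, beside -0.0094 over all genes tested, and it ranged from -0.58 (RPS20) to 0.17 (RPS10). No member passed an absolute log2 fold change of 1, a limit that 2.2% of all genes passed together with the adjusted p. The biological coefficient of variation was 0.13 with all 6 libraries and 0.0485 without replicate 2.

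By size, 11 of the 60 genes had a log2 fold change below -0.3 without si-KRT7 replicate 2, 5 of the large and 6 of the small subunit. A further 28 lay between -0.3 and -0.15, and 21 were above -0.15, of which 14 still passed the test. The 7 members that did not pass were RPL6, RPL11, RPL26, RPL31, RPS3A, RPS10 and RPS23. The median was -0.17 for the large subunit, with 28 of 32 genes lower, and -0.20 for the small subunit, with 25 of 28 lower. Beside these counts, 22% of all genes were lower in the same fit, and 45.2% of those with a mean of at least 100 CPM. Shares of all genes below -0.3 or -0.15 were not counted.

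**Figure D3:**
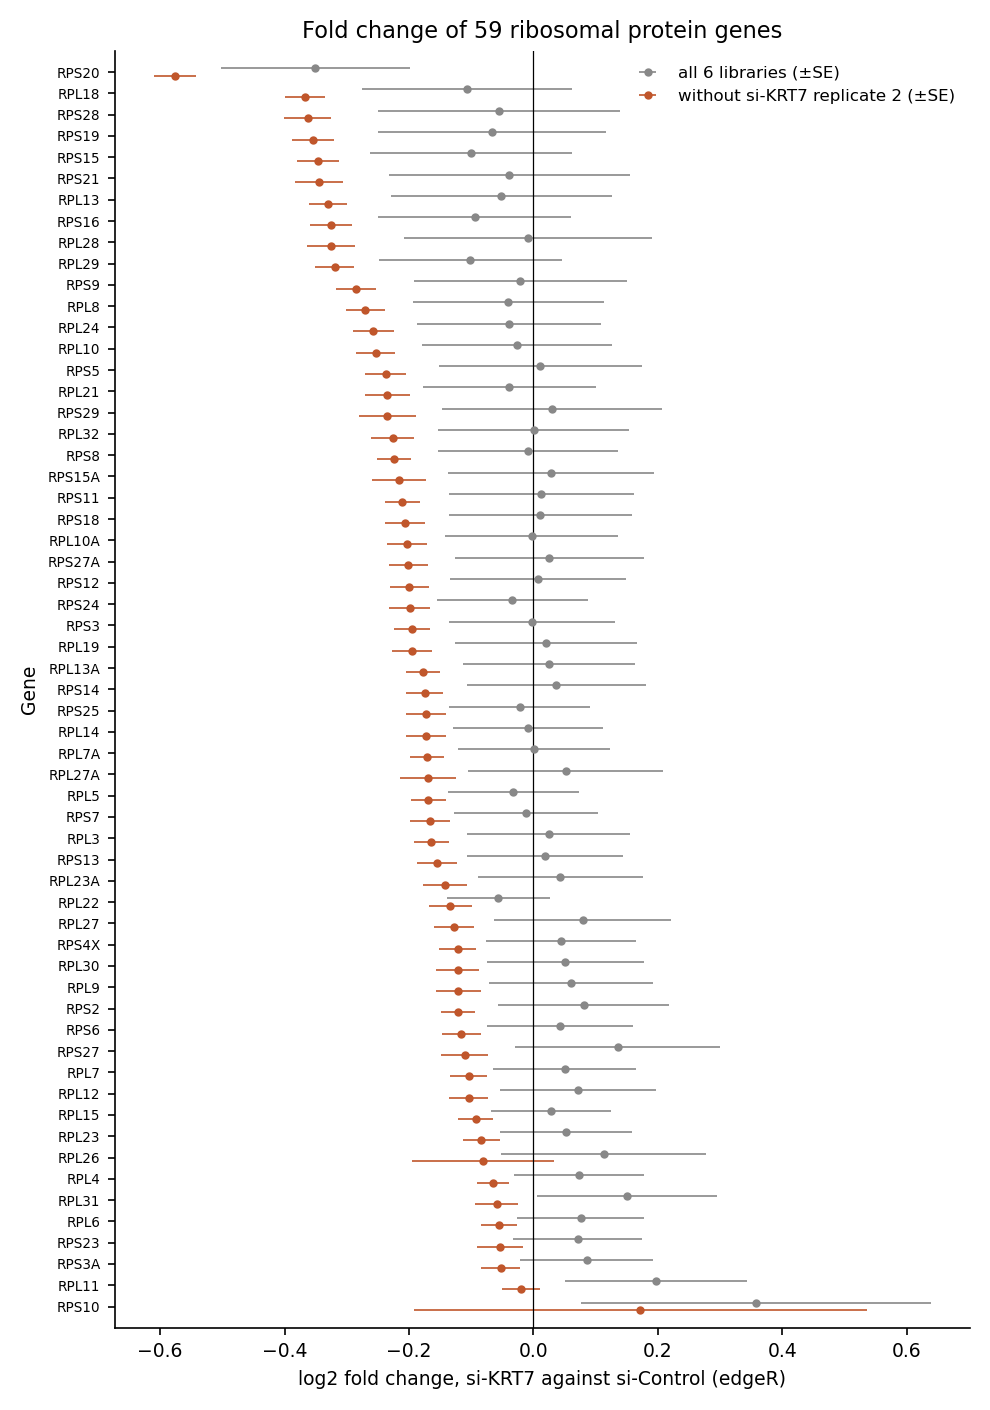
Log2 fold change, si-KRT7 against si-Control, of 59 of the 60 genes in edgeR's fit of all 6 libraries (grey) and without si-KRT7 replicate 2 (orange), with bars of 1 standard error and genes ordered by the latter. The grey points gather around 0, and the orange points lie mostly to the left of 0, from RPS20 at -0.58 to RPS10 at 0.17.

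RPL5 and RPL11 bind 5S ribosomal RNA and, with it or alone, can inhibit MDM2, the ubiquitin ligase of p53, as can RPL23. RPL5 (ENSG00000122406) lay at 1988, 1948 and 2036 CPM in si-Control replicates 1, 2 and 3 and at 1743, 2290.5 and 1805 CPM in si-KRT7 replicates 1, 2 and 3. RPL11 (ENSG00000142676) lay at 989.5, 954 and 999 CPM in si-Control and at 958, 1435 and 981 CPM in si-KRT7 libraries. RPL5 thus lay below the controls in replicates 1 and 3, whereas RPL11 lay within the range of the controls there and stood above them only in replicate 2. RPL23 (ENSG00000125691) lay at 712, 707 and 711 CPM in si-Control and 663, 867 and 679 CPM in si-KRT7 libraries. The log2 fold change with all 6 libraries was -0.032 for RPL5 (standard error 0.10, adjusted p = 0.902), 0.20 for RPL11 (standard error 0.15, adjusted p = 0.519) and 0.052 for RPL23 (standard error 0.11, adjusted p = 0.834) in edgeR. Without si-KRT7 replicate 2, RPL5 and RPL23 were lower in edgeR's test, at -0.17 (adjusted p = 3.29e-05) and -0.084 (adjusted p = 0.0249), and RPL11, at -0.020 (adjusted p = 0.638), did not pass.

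Among proteins close to the site of peptide bond formation, RPL3 lies near the catalytic centre and RPL10 joins late in subunit assembly. RPL3 (ENSG00000100316) was at 1787, 1752 and 1849 CPM in si-Control and 1597, 2267 and 1616 CPM in si-KRT7 libraries. RPL10 (ENSG00000147403) was at 1858, 1830.0 and 1982 CPM in si-Control and 1574, 2388 and 1604 CPM in si-KRT7 libraries. Both showed the same order, with replicate 2 highest and replicates 1 and 3 lowest of the 6 libraries. With all 6 libraries the log2 fold changes were 0.024 and -0.027 (adjusted p = 0.945 and 0.948 in edgeR), and without replicate 2 they were -0.16 and -0.25 (adjusted p = 5.26e-05 and 6.19e-07).

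The wall of the exit tunnel and its rim hold RPL4, RPL19, RPL23A, RPL26 and RPL31. RPL4 (ENSG00000174444) was at 3081, 2989 and 3111 CPM in si-Control and 2916, 3794 and 2948 CPM in si-KRT7 libraries. RPL31 (ENSG00000071082) was at 610.3, 608 and 642 CPM in si-Control and 579, 872 and 614 CPM in si-KRT7 libraries, so that replicate 3 lay among the controls. With all 6 libraries the log2 fold change of RPL31, 0.15 (standard error 0.14, adjusted p = 0.626 in edgeR), was exceeded by those of RPS10 and RPL11 among the 60. Without si-KRT7 replicate 2, 3 of the 5 exit tunnel genes were lower, with a median of -0.081 over the 5. In this fit 22% of all genes were lower, and 45.2% of those with a mean of at least 100 CPM, a level that RPL26 did not reach. Whether the exit tunnel genes differ from these shares was not tested. RPL4 was among the 3 lower genes at -0.065 (adjusted p = 0.0454 in edgeR), close to the threshold. RPL26 had only about 10 CPM and a standard error of 0.11, so a change of the median size was not detectable there.

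Several further large subunit proteins have been studied outside the ribosome. RPL22 (ENSG00000116251), which binds other RNAs and is often mutated in tumors with microsatellite instability, was at 243, 237 and 247 CPM in si-Control and 226, 257 and 217 CPM in si-KRT7 libraries. After RPS20 it was the member closest to its si-Control mean in replicate 2. RPL13A (ENSG00000142541), known from interferon-controlled translational silencing, was at 3969, 3912 and 4173 CPM in si-Control and 3531, 5148 and 3589 CPM in si-KRT7 libraries. The log2 fold changes with all 6 libraries were -0.056 and 0.025 (adjusted p = 0.766 and 0.945 in edgeR), and without si-KRT7 replicate 2 both were lower, at -0.13 and -0.18 (adjusted p = 0.00288 and 1.11e-05).

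RPL18 and RPL29, structural proteins of the large subunit, had the lowest log2 fold changes after RPS20 with all 6 libraries. RPL18 (ENSG00000063177) was at 1653, 1609 and 1738 CPM in si-Control and 1275, 2053 and 1316 CPM in si-KRT7 libraries. RPL29 (ENSG00000162244) was at 1086, 1069 and 1108 CPM in si-Control and 896, 1294 and 851 CPM in si-KRT7 libraries. In both, replicates 1 and 3 lay well below the controls and replicate 2 above them. The log2 fold changes were -0.11 (standard error 0.17) and -0.10 (standard error 0.15) with all 6 libraries, and -0.37 (adjusted p = 2.33e-09 in edgeR) and -0.32 (adjusted p = 1.33e-08) without replicate 2.

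RPS20 (ENSG00000008988), a protein of the head of the small subunit, stood apart from the other members. Its level was 762, 756 and 813 CPM in si-Control and 519.9, 784 and 525 CPM in si-KRT7 libraries. In replicates 1 and 3 it was thus the furthest below the controls of all 60 genes, and in replicate 2 it lay within their range. The log2 fold change with all 6 libraries was -0.35 (standard error 0.15, adjusted p = 0.267 in edgeR), and without replicate 2 it was -0.58 (standard error 0.034, adjusted p = 5.49e-12). With all 6 libraries and no count filter it was -0.37 and passed (adjusted p = 0.00288 in edgeR). Like the other members, its level in replicate 2 was above that in replicates 1 and 3.

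RPS6 (ENSG00000137154) is the substrate of the S6 kinases, whose phosphorylation is a common readout of mTOR signaling. It was at 1439.7, 1468 and 1501 CPM in si-Control and 1310.4, 1823 and 1407 CPM in si-KRT7 libraries. RPS27A (ENSG00000143947), which is made as a fusion with ubiquitin, was at 868, 865 and 917 CPM in si-Control and 762, 1157 and 778 CPM in si-KRT7 libraries. With all 6 libraries their log2 fold changes were 0.042 and 0.026 (adjusted p = 0.884 and 0.951 in edgeR). Without replicate 2 both were lower, at -0.12 and -0.20 (adjusted p = 0.00435 and 1.72e-05).

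At the channel through which the small subunit takes up mRNA and at the decoding site lie RPS2, RPS3, RPS9, RPS15 and RPS23. RPS3 (ENSG00000149273), which also has a role in DNA repair, was at 2074, 2022 and 2137 CPM in si-Control and 1788, 2587 and 1849 CPM in si-KRT7 libraries. Its log2 fold change was -0.0023 with all 6 libraries (adjusted p = 0.995 in edgeR) and -0.20 without replicate 2 (adjusted p = 6.83e-06). Without replicate 2, 4 of these 5 genes were lower, beside 45.2% of all genes with at least 100 CPM, from -0.35 for RPS15 to -0.12 for RPS2, and RPS23 at -0.054 did not pass.

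Members mutated in Diamond-Blackfan anaemia, a failure of red cell formation, number 15 in the list used here. Without replicate 2, 11 of the 15 were lower, beside 22% of all genes and 45.2% of those with a mean of at least 100 CPM, and the median log2 fold change was -0.17, near that of all 60. RPS19 (ENSG00000105372), the gene most often mutated in that disease, was at 1656, 1577 and 1713 CPM in si-Control and 1253, 2137 and 1331 CPM in si-KRT7 libraries. RPS14 (ENSG00000164587), whose loss of 1 copy underlies the anaemia of the 5q- syndrome, was at 1319.9, 1290.0 and 1364 CPM in si-Control and 1171, 1725 and 1181 CPM in si-KRT7 libraries. Both followed the common order of the 6 libraries, RPS19 with the wider range. The log2 fold changes were -0.067 and 0.037 with all 6 libraries (adjusted p = 0.882 and 0.923 in edgeR), and -0.35 and -0.18 without replicate 2 (adjusted p = 1.17e-08 and 3.79e-05).

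RPL28, RPS28, RPS21 and RPS19 were among the genes with the widest gap between si-KRT7 replicate 2 and replicates 1 and 3. RPL28 (ENSG00000108107) was at 1113, 1127 and 1173 CPM in si-Control and 856, 1572 and 965 CPM in si-KRT7 libraries. RPS28 (ENSG00000233927), a protein at the mRNA exit of the small subunit, was at 221, 219 and 224 CPM in si-Control and 166, 294 and 179 CPM in si-KRT7 libraries. Both lay above the controls in replicate 2 and below them in replicates 1 and 3. RPS21 (ENSG00000171858) was at 414, 403 and 436 CPM in si-Control and 316, 559.9 and 343 CPM in si-KRT7 libraries. The deviations of these 4 genes nearly cancelled, so that their log2 fold changes with all 6 libraries were close to 0, from -0.067 (RPS19) to -0.0092 (RPL28), and without replicate 2 they lay between -0.36 (RPS28) and -0.33 (RPL28).

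RPS10 (ENSG00000124614) had the highest log2 fold change of the 60 and the fewest reads. It had between 24 and 38 counts in a library, and its CPM were 0.869, 0.939 and 0.763 in si-Control and 0.996, 1.38 and 0.941 in si-KRT7 libraries. The 3 si-KRT7 libraries were above the 3 si-Control libraries, but the log2 fold change of 0.36 had a standard error of 0.28 (adjusted p = 0.54 in edgeR). Ribosomal protein genes have many processed copies in the genome and some overlap read-through genes, so reads can be shared between loci. Whether this bears on the low counts of RPS10 and RPL26 was not tested, and those counts are uncertain.

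The deviations of the members were ordered alike in replicates 1 and 3. Over the 58 members with at least 50 CPM, the log2 ratios of si-KRT7 replicates 1 and 3, each to a different si-Control library, had a mean Pearson r of 0.855 (0.816 to 0.902 over 6 pairings), beside 0.452 over all genes tested. The values over all genes include genes below 50 CPM, so they are not a comparison at a like level. Between replicates 1 and 2 the mean r was 0.0705 (0.0913 over all genes), and between replicates 2 and 3 it was 0.297 (0.121 over all genes). RPS20 lay far from the other members in replicates 1 and 3, and without it these means were 0.819, -0.168 and 0.0746, so that the value for replicates 2 and 3 rested largely on that gene. These are correlations across genes, which are not independent replicates, within libraries of unequal depth, and they are given without a p.

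**Figure D4:**
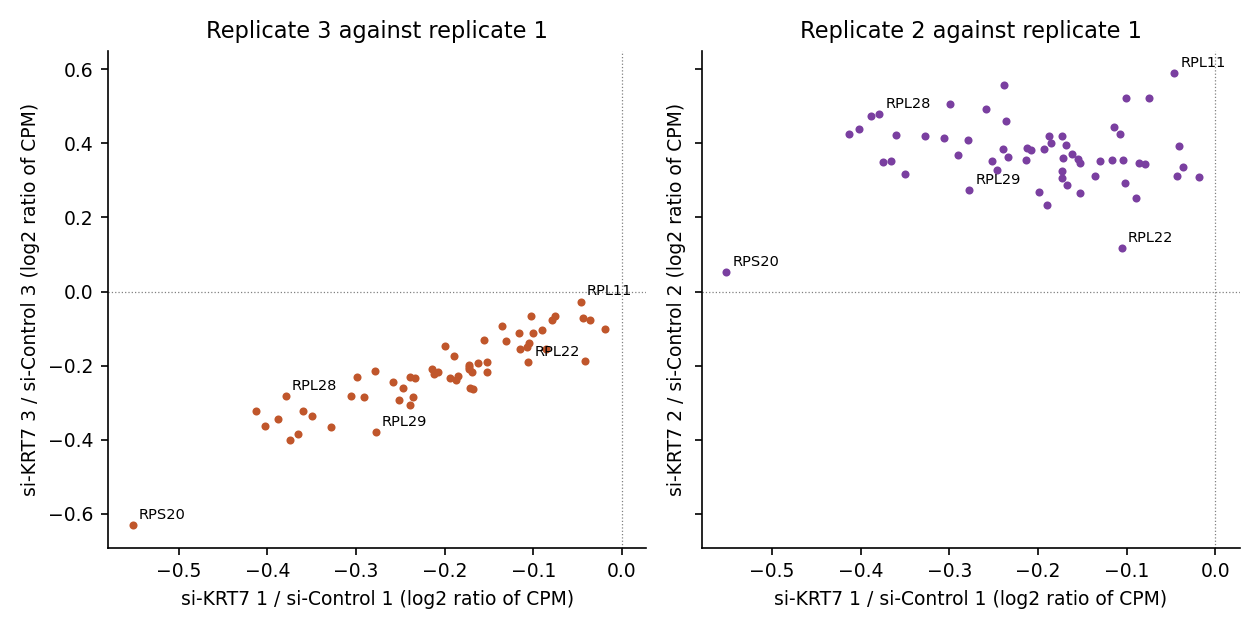
Log2 ratio of CPM, si-KRT7 replicate 3 to si-Control replicate 3 (left) and si-KRT7 replicate 2 to si-Control replicate 2 (right), against that of si-KRT7 replicate 1 to si-Control replicate 1, with 1 point for each of the 58 ribosomal protein genes of at least 50 CPM. The points form a line in the left panel, with RPS20 lowest on both axes, and a cloud above 0 in the right panel.

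For the remainder of the pathway, genes were listed by hand with their identifiers, since no table used here pairs human identifiers with names. Of 19 other cytosolic ribosomal protein genes, among them the stalk proteins RPLP0, RPLP1 and RPLP2, 0 passed the test with all 6 libraries (2.07% of all genes) and 17 were lower without replicate 2 (22% of all genes, and 45.2% of those with a mean of at least 100 CPM). Their median log2 ratios in si-KRT7 replicates 1, 2 and 3 were -0.23, 0.40 and -0.20, and replicate 2 was the highest library in 17 of the 19, against 27.6% of all genes. The 3 genes outside either count had means of 3.05, 8.13 and 16.8 CPM. Of 15 tested translation factors and other genes with a terminal oligopyrimidine start, 0 passed with all 6 libraries. Without replicate 2, 5 were higher and 7 lower, beside 20.9% and 22% of all genes. All of the 15 but EEF1D had a mean of at least 100 CPM, a level at which 45.2% of genes were lower. Their median log2 ratios in si-KRT7 replicates 1, 2 and 3 were -0.048, 0.19 and -0.056. Replicate 2 was the highest library in 12 of the 15 (27.6% of all genes, 30.3% of those with at least 100 CPM). In 7 of the 15, replicate 2 was above, and replicates 1 and 3 were below, every si-Control library (12.4% and 22.4%). Of 7 tested paralogues of ribosomal protein genes, 0 passed with all 6 libraries, and 2 were higher and 2 lower without replicate 2, shares not far from those of all genes. Replicate 2 was nonetheless the highest library in 6 of the 7 paralogues, against 27.6% of all genes. In 3 of the 7 it was above, and replicates 1 and 3 were below, every si-Control library, against 12.4% of all genes. The 13 mitochondrially encoded mRNAs, which are translated by other ribosomes, had medians of -0.023, 0.0027 and -0.012 in the 3 si-KRT7 libraries. Single mRNAs spread around these medians, with interquartile ranges of 0.56, 0.28 and 0.49. In 3 of the 13, replicate 2 was above and replicates 1 and 3 were below every si-Control library. This held for 12.4% of all genes and 22.4% of those with a mean of at least 100 CPM. In the test of all 6 libraries 1 was higher (0.712% of all genes). Without replicate 2, 6 were higher and 6 lower (20.9% and 22% of all genes). All 13 had a mean of at least 100 CPM, where 45.2% of genes were lower.

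**Figure D5:**
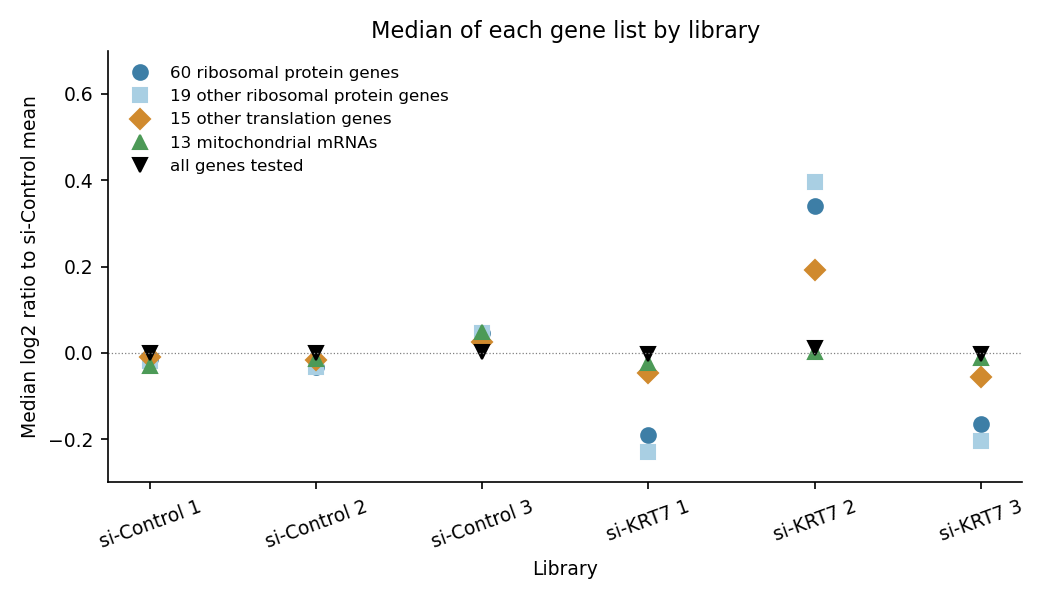
Median log2 ratio to the si-Control mean in each library for the 60 ribosomal protein genes, 19 other ribosomal protein genes, 15 other translation genes, 13 mitochondrially encoded mRNAs and all genes tested. Both ribosomal protein lists are highest in si-KRT7 replicate 2, at 0.34 and 0.40, and lie below 0 in si-KRT7 replicates 1 and 3, while the median of all genes stays within 0.012 of 0.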

How the data were processed

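Polyadenylated RNA of 6 CFPAC-1 libraries, 3 transfected with si-Control and 3 with si-KRT7, was sequenced on the DNBSEQ platform. The table the authors deposited holds raw counts of reads on each gene, as whole numbers. The submitters' processing notes name STAR 2.7.11b and the mouse build GRCm39, although the identifiers are human. The counting tool, the annotation and the strand setting are not given in the sources used here. No name, coordinate or sequence table of the human genome was used, so symbols of the 60 members came from the list that defined them, other symbols were paired with identifiers by hand, and GC content and gene length were not analysed here.

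The filterByExpr function of edgeR 4.0.16 (R 4.3.3) kept 15736 of 30543 genes, or 16202 without si-KRT7 replicate 2. TMM normalization was followed by edgeR's quasi-likelihood F-test, with Benjamini-Hochberg adjustment over all genes tested and a threshold of 0.05. The standard error is the log2 fold change divided by the square root of F and is approximate. Log2 ratios were taken from log2 CPM to which a prior count of 2 was added. Single values per library were compared with exact permutation tests. Alternatives were DESeq2 1.42.0, limma 3.58.1 (voom), other normalizations and filters, a replicate block and each library left out. The edgeR, DESeq2 and voom fits were tested on simulated data. The main fit treated the libraries as unpaired. Same-numbered libraries deviated from their group means with correlations of 0.0520, -0.0798 and -0.0728. Libraries of different numbers were not compared in this way, so these values do not tell whether the replicate numbers pair libraries.

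The members, the lists and the tests were chosen with earlier results of these data known. Members named with values in every library were those past the threshold with all 6 libraries (there were 0), the 3 with the highest and the 3 with the lowest log2 fold change, 13 chosen by role and the 5 whose si-KRT7 replicate 2 lay farthest from replicates 1 and 3, which made 22 in all. The values of 1 of these genes are not reported here.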

Additional observations from a re-analysis of the deposited data

How the results depend on the processing

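The count of members called turned on the weight given to si-KRT7 replicate 2. With that library at full weight, 0 of the 60 genes passed under the main settings, under DESeq2 size factors, library size only, TMM factors without the members, a minimum of 10 counts in every library, DESeq2's Wald test, limma-voom, a robust fit and the replicate block. Those fits called 0.483% (replicate block) to 7.33% (DESeq2's Wald test) of all genes in either direction. Without a count filter 1 passed, RPS20, at -0.37 (adjusted p = 0.00288 in edgeR), beside 4.41% of all genes. With limma-voom and sample quality weights 39 passed, all lower, beside 43.6% of all genes. Leaving out each library in turn gave 0 to 53 members called and a median log2 fold change of -0.18 to 0.12, with 53 and -0.18 without si-KRT7 replicate 2, 0.12 without si-KRT7 replicate 1 and 0.092 without si-KRT7 replicate 3. Of all genes, 42.9% were called without si-KRT7 replicate 2, and 0.542% and 0.223% without si-KRT7 replicates 1 and 3. Without a si-Control library 0.0372% to 0.0616% were called. Where so few genes were called, 0 members called says little about the members. Without si-KRT7 replicate 2, 52 members were lower with DESeq2 size factors, 44 with library size only and 53 with TMM factors without the members. In the same order, these fits called 42.8%, 42.4% and 42.9% of all genes in either direction. Library size only moved the median log2 ratio in si-KRT7 replicate 1 to -0.14. With the replicate block the median was -0.015 and 76 genes in all were called, and with 0 members called the block changed no call on them.

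Of 330 values of the 22 named genes under alternatives that kept replicate 2, 313 did not pass, and of 88 under alternatives without it 72 passed. Fits that kept replicate 2 called 0.0372% to 43.6% of all genes in either direction, and those without it 42.4% to 42.9%. Some of the 22 genes were named for their own values in these data, and each recurs in every fit. These counts are thus not independent evidence of a decrease. The direction turned, with a call, for 7 of the 22 genes. With sample quality weights the log2 fold changes were -0.14 (RPL3), -0.15 (RPL13A), -0.15 (RPS14) and -0.17 (RPS27A). Without replicate 2 and with DESeq2 size factors they were -0.077 (RPL23), -0.16 (RPL3), -0.17 (RPL13A), -0.11 (RPS6), -0.17 (RPS14) and -0.19 (RPS27A). Without replicate 2 and with library size only they were -0.12 (RPL3), -0.13 (RPL13A), -0.13 (RPS14) and -0.15 (RPS27A). Without it and with TMM factors without the members they were -0.084 (RPL23), -0.16 (RPL3), -0.065 (RPL4), -0.18 (RPL13A), -0.12 (RPS6), -0.17 (RPS14) and -0.20 (RPS27A). Leaving out each library in turn, the ranges were -0.084 to 0.12 (RPL23), -0.16 to 0.11 (RPL3), -0.065 to 0.14 (RPL4), -0.18 to 0.12 (RPL13A), -0.12 to 0.13 (RPS6), -0.18 to 0.13 (RPS14) and -0.20 to 0.13 (RPS27A).

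Of the members, 58 had a mean of at least 100 CPM, whereas RPS10 and RPL26 had few counts and standard errors of 0.36 and 0.11 without replicate 2. With 3 libraries against 3, an exact permutation test cannot go below p = 0.1, and with 1 library apart in a group of 3 the data do not tell which of the 2 patterns is typical of si-KRT7 cells.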
